A study of Arabidopsis thaliana with 46 samples.

Results

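NRT2.5 (locus AT1G12940) and AT3G21670 are a pair of nitrate transporter genes of Arabidopsis thaliana, and each is represented by 1 of the 22810 probe sets on the array. These 2 of the 13350 genes named by a probe set were found by name, as the probe sets annotated to these genes, and their levels were followed over all 16 groups and 46 arrays. The pair had been selected on measured values: NRT2.5 stood among the 10 named genes with the most negative difference between nitrogen-rich and nitrogen-free medium in light-grown Col-0 shoots, and AT3G21670 among the 10 for the insertion line SALK_070989 against Col-0 in the dark and among the 10 for this line between dark and light. The values of these comparisons, and of comparisons that contain them, are therefore given below as descriptions without a test. RefSeq's gene table lists AT3G21670 also as NPF6.4.

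Shoots of 14-day-old seedlings were profiled on Affymetrix arrays in a study of the transcription factor WRKY1 (AT2G04880) in light and nitrogen signalling. The groups carried 1 of 3 T-DNA insertion lines of WRKY1 (SALK_016954, SALK_136009 and SALK_070989, each a single line) or the wild type Col-0, and all were raised on agar with 0.1% sucrose at 22 °C under 16 h of light a day. At steady state, on basal MS medium, all 4 genotypes were sampled 2 h after the start of the light period. In the nitrogen experiment SALK_070989 and Col-0 were raised on 1 mM KNO3 as the nitrogen source and moved for 2 h at the start of the light period to N-rich medium (KNO3 and NH4NO3, 20 mM of each) or to N-absent medium (20 mM KCl). In the light experiment the same genotypes were foil-wrapped on day 13, when their light period began, and harvested on day 14 in darkness (dark), or were kept in the normal light cycle (light). In the combined experiment they were given darkness together with N-rich or N-absent medium (dark N-rich, dark N-absent); the sources used here do not give the times of transfer and wrapping. Each group held 3 arrays, except Col-0 dark N-rich and Col-0 dark N-absent with 2 each, where the labels say that the other replicate was lost at collection.

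Nitrate enters plant cells through families of membrane proteins. The NRT2 proteins are high-affinity carriers, which take up nitrate when little of it is present, and in Arabidopsis NRT2.5 is known as the member whose transcript accumulates in long nitrogen starvation, in the outer root layers and in the veins of leaves. The larger NPF family (formerly NRT1/PTR) holds mostly low-affinity carriers, and its members move nitrate, peptides, hormones or glucosinolates. AT3G21670 belongs to the same NPF subfamily as NPF6.3, the nitrate carrier and sensor also called NRT1.1. Within the nucleus, HHO2 and HHO3, GARP-type transcription factors that are themselves induced by nitrate, are known in Arabidopsis to repress starvation genes, NRT2.5 among them.

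The deposited values were GCRMA levels on a log2 scale, and a difference of 1 is a 2-fold change. Array medians lay between 4.29 and 4.68, and the GAPDH 3′ probe set stood 1.79 to 3.02 above the 5′ one. This GAPDH difference was largest on SALK_070989 steady replicate 3 (3.02) and next on Col-0 dark N-absent replicate 1 (2.91). WRKY1 had levels of 3.93 to 4.45 in SALK_136009, 2.23 to 2.31 in SALK_016954 and 2.23 to 3.26 in SALK_070989, against 6.57 to 7.84 on the 19 Col-0 arrays. Of the markers listed for leaf and root, 2 of 10 leaf and 4 of 10 root genes were named here. The photosynthesis genes RCA (Rubisco activase) and PRK (phosphoribulokinase) were high, with group means of at least 11.0 and 8.77. The root-hair genes EXPA7 and EXPA18 had group means of at most 3.07, whereas PYK10 and NAI2, genes of the endoplasmic-reticulum bodies of roots and seedlings, were at 10.6 to 12.2 and 8.13 to 9.74. The labels do not say that replicates came from separate cultures, so the p-values cover only the spread among the arrays of a group, and that spread may be technical. In whole shoots, fewer cells of a type and less RNA per cell cannot be told apart.

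NRT2.5 gave a signal above the array's lowest level only in the 2 experiments with N-rich and N-absent medium. On all 24 arrays of the steady-state and light experiments it lay between 2.23 and 2.44, at the lowest level of its probe set, whatever the genotype and whether the plants were in the dark or in the light. On all 22 arrays of the nitrogen and combined experiments it lay between 2.95 and 8.80. A group mean within 0.5 of the lowest value of a probe set is called at the floor here, and no difference is given between groups at the floor. The 24 low arrays came from plants on basal MS medium, as far as the labels give it, and the others from other media in other experiments, so medium and experiment cannot be told apart in this contrast.

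**Figure D1:**
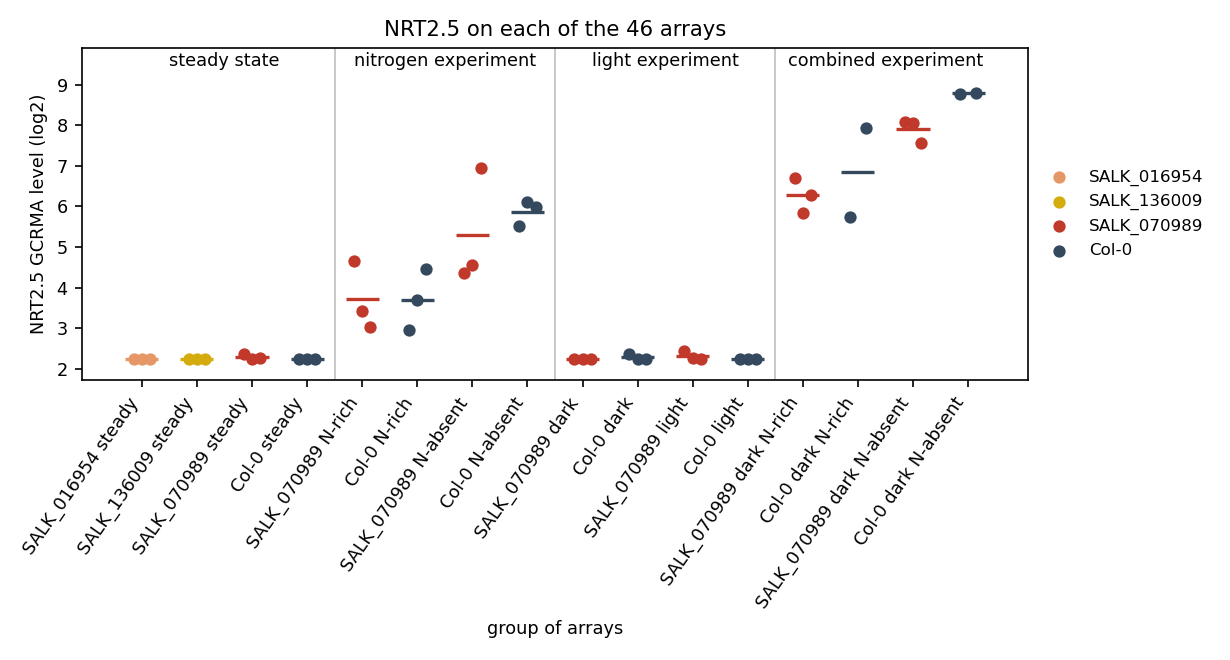
GCRMA level of NRT2.5 (log2, vertical axis) on each array, by group, with short lines at the group means and colours for the genotype. All arrays of the steady-state and light experiments lie between 2.23 and 2.44, and those of the nitrogen and combined experiments between 2.95 and 8.80.

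Among the groups with a signal, NRT2.5 was lower on N-rich than on N-absent medium, in both genotypes, in light and in the dark. In SALK_070989 in the light it had levels of 4.66, 3.43 and 3.04 on N-rich medium, against 4.35, 4.56 and 6.95 on N-absent medium. These arrays overlap, because N-rich replicate 1 lies above N-absent replicates 1 and 2. In Col-0 in the light the levels were 2.95, 3.69 and 4.45 on N-rich medium, against 5.52, 6.11 and 5.99 on N-absent medium, with no overlap. In the dark, SALK_070989 had 6.71, 5.83 and 6.28 on N-rich medium, against 8.09, 8.06 and 7.56 on N-absent medium. Col-0 in the dark had 5.73 and 7.95 on N-rich medium, against 8.77 and 8.80 on N-absent medium. The dark groups of either genotype do not overlap, although the Col-0 dark N-rich arrays lie far from each other.

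The Col-0 difference in the light, which was used to pick the gene, was -2.17 ± 0.44 (log2, N-rich minus N-absent, ± SE), and 25.8% of the 14288 probe sets tested were called in that comparison. The other 3 nitrogen comparisons share no array with it. Over their mean NRT2.5 was lower by 1.72 ± 0.27 on N-rich than on N-absent medium, or 3.30-fold. The limma adjusted p was 4.24e-06 over all probe sets, and the level was lower in 3 of 3 comparisons. An exact two-sided permutation test of that mean, with arrays exchanged within each comparison, gave p = 0.0025 over 2400 arrangements. By this mean, 38% of all probe sets were called. No group was sampled before the transfer, so a fall on N-rich and a rise on N-absent medium cannot be told apart. Taken singly, the difference was -1.58 ± 0.44 in SALK_070989 in the light (limma adjusted p = 0.00866; 18.8% of probe sets called), -1.63 ± 0.44 in SALK_070989 in the dark (limma adjusted p = 0.00474; 28.6% called) and -1.95 ± 0.54 in Col-0 in the dark (limma adjusted p = 0.0077; 20.1% called).

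The single comparisons are less secure than these p-values. The error of the fit pools the spread over all 16 groups, and for NRT2.5 this spread was 0.843 (residual SD, log2) in the nitrogen and combined experiments, against 0.0517 in the groups at the floor. Fitted to the 8 groups of the nitrogen and combined experiments alone, the 3 single comparisons had limma adjusted p-values of 0.0936 (SALK_070989 in the light), 0.06 (SALK_070989 in the dark) and 0.0872 (Col-0 in the dark), and the mean of the 3 had 0.00188. In SALK_070989 in the light the difference was -0.749 (limma adjusted p = 0.227) without N-absent replicate 3 and -1.25 (0.0782) without N-rich replicate 3. In Col-0 in the dark it was -0.843 (limma adjusted p = 0.405) without N-rich replicate 1 and -3.06 (0.000216) without N-rich replicate 2.

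Ordered by group mean, NRT2.5 was highest in Col-0 dark N-absent, then in SALK_070989 dark N-absent, Col-0 dark N-rich, SALK_070989 dark N-rich, Col-0 N-absent, SALK_070989 N-absent, SALK_070989 N-rich and Col-0 N-rich. Arrays of neighbours in this order overlapped, except between the first and the second group and between the last and the groups at the floor.

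Levels in the dark stood above those in the light on the same kind of medium. The 10 arrays of the combined experiment had 5.73 to 8.80, and the highest of the 12 arrays of the nitrogen experiment had 6.95. Dark and light plants on these media were grown in different experiments, so the effects of darkness and of experiment cannot be told apart. The nitrogen response is a difference within each experiment, but its change between dark and light has the same limit. In SALK_070989 this response differed between dark and light by -0.05 ± 0.62 (95% interval -1.31 to 1.21, limma adjusted p = 0.976), where 8.63% of probe sets were called.

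The sum of the 4 named root markers was also lower on N-rich medium, without overlap except in Col-0 in the light. On a log2 scale it was 11.7 to 12.0 in SALK_070989 dark N-rich and 11.3 to 11.6 in Col-0 dark N-rich, against 12.1 to 12.3 and 11.9 to 12.4 on N-absent medium in the dark. In the light it was 11.9 to 12.0 in SALK_070989 and 11.9 to 12.1 in Col-0 on N-rich medium, against 12.2 to 12.5 and 12.0 to 12.3 on N-absent medium. PYK10 was called lower on N-rich medium in SALK_070989 in the light (-0.41 ± 0.13, limma adjusted p = 0.0274) and in the dark (-0.43 ± 0.13, 0.0148) and in Col-0 in the dark (-0.76 ± 0.16, 0.000667), and EXPA7 and EXPA18 did not pass the filter. NAI2, the other root marker that passed it, was not called in any of the 4 comparisons, and in Col-0 in the light it averaged 9.10 on N-rich medium, against 8.87 on N-absent medium. The part of root-expressed genes in the NRT2.5 result was not tested.

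NRT2.5 was not called different between SALK_070989 and Col-0 in any condition where it had a signal. The Col-0 arrays in the light, on either medium, are those that picked the gene, so the genotype differences in the light, the mean over 4 conditions and their p-values are not independent of that choice. On N-rich medium in the light the difference, SALK_070989 minus Col-0, was 0.01 ± 0.44 (95% interval -0.88 to 0.90, limma adjusted p = 1; 2.75% of probe sets called). On N-absent medium in the light it was -0.58 ± 0.44 (-1.48 to 0.31, limma adjusted p = 0.474; 8.02% called). Here 2 of the 3 SALK_070989 arrays lay below all Col-0 arrays and replicate 3, at 6.95, above them; without it the difference was -1.42 (limma adjusted p = 0.0159). Between arrays of the same replicate number, which deviate together in this comparison, it was -1.17, -1.55 and 0.97. In the dark on N-rich medium it was -0.57 ± 0.49 (-1.56 to 0.43, limma adjusted p = 0.591; 5.19% called).

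On N-absent medium in the dark every SALK_070989 array (7.56 to 8.09) lay below both Col-0 arrays (8.77 and 8.80). The difference of -0.88 ± 0.49 (95% interval -1.88 to 0.11) had a limma adjusted p of 0.217, in a comparison where 20.1% of probe sets were called, and 0.0469 in a fit of these 2 groups alone. The leaf markers moved in the same comparison: their sum was 11.83 to 11.90 in SALK_070989, against 11.13 to 11.45 in Col-0, and RCA (0.49 ± 0.091, limma adjusted p = 0.000174) and PRK (0.87 ± 0.13, 3.68e-06) were both higher in SALK_070989. Their part in the NRT2.5 difference was not tested. Over the mean of the 4 conditions with N-rich or N-absent medium the difference was -0.51 ± 0.23 (-0.98 to -0.03, limma adjusted p = 0.123; 20.1% called). Fitted to the 8 groups of the nitrogen and combined experiments alone, that mean had an SE of 0.325 and a limma adjusted p of 0.311. Most alternatives left it not called. It was past the threshold without SALK_070989 N-absent replicate 3 (-0.714, limma adjusted p = 0.0054) or without SALK_070989 N-rich replicate 1 (-0.625, 0.0469). Without Col-0 dark N-rich replicate 1, which leaves 1 array in that group, it was -0.783. The light-grown Col-0 arrays in it picked the gene, so none of these p-values is independent of that choice. The nitrogen response in the dark differed between SALK_070989 and Col-0 by 0.32 ± 0.69 (-1.09 to 1.73, limma adjusted p = 0.845; 9.54% called). In the light the same difference of responses, which contains the comparison that picked the gene, was 0.59 ± 0.62.

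The genes around NRT2.5 in the nitrate pathway were read from lists of nitrate transporters, assimilation enzymes and regulators. No other NRT2 or NRT3 gene, anion channel, ammonium transporter or assimilation enzyme of the lists has a probe set with 1 gene name in the annotation used here. Of 52 other NPF genes 33 were named, and 16 of these passed the filter of a highest group mean above 4. Of 20 regulators 3 passed it: HHO2, HHO3 and NRG2, a positive regulator of nitrate signalling. The 4 nitrogen comparisons are set side by side below, and they do not share arrays.

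HHO2 and HHO3 were higher on N-rich than on N-absent medium in all 4 comparisons, opposite to NRT2.5. HHO3 had 8.13, 8.07 and 8.18 in SALK_070989 on N-rich medium in the light, against 5.84, 5.45 and 5.32 on N-absent medium. In Col-0 in the light it had 7.75, 7.79 and 7.85 on N-rich medium, against 4.79, 4.99 and 5.03 on N-absent medium. Its differences were 2.58 ± 0.15 and 2.86 ± 0.15 in the light and 2.44 ± 0.15 and 2.77 ± 0.18 in the dark (SALK_070989, then Col-0), all with limma adjusted p-values of 5.82e-14 or less. HHO2 differed by 1.28 ± 0.15, 1.75 ± 0.15, 1.89 ± 0.15 and 2.84 ± 0.19 in the same order, with limma adjusted p-values of 6.32e-08 or less. NRG2 went the other way in the light, at -0.345 in SALK_070989 and -0.535 in Col-0, both called, and was not called in the dark. Its SALK_070989 call was lost in 4 of 12 alternatives.

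Both HHO2 and HHO3 were also higher in the insertion lines than in Col-0 at steady state. Each comparison uses the same Col-0 arrays, and 3.28% (SALK_016954), 8.48% (SALK_136009) and 12.5% (SALK_070989) of probe sets were called. For HHO3 the SALK_016954 arrays had 8.58, 8.53 and 8.72, the SALK_136009 arrays 8.54, 8.76 and 8.85 and the SALK_070989 arrays 8.93, 8.88 and 8.75, against 7.40, 7.43 and 7.95 in Col-0. The differences were 1.01 ± 0.15, 1.12 ± 0.15 and 1.26 ± 0.15 in that order of lines (limma adjusted p = 2.78e-05, 2.39e-06 and 1.18e-07), and those of HHO2 were 0.84 ± 0.15, 1.01 ± 0.15 and 0.94 ± 0.15 (0.000576, 1.76e-05 and 3.46e-05). In a fit of the groups compared alone, the calls for SALK_016954 were lost (0.0941 for HHO3 and 0.0768 for HHO2). On N-absent medium in the light HHO3 was higher in SALK_070989 by 0.60 ± 0.15 (limma adjusted p = 0.00834), but by 0.453 (0.0876) without SALK_070989 N-absent replicate 1. On N-rich medium HHO3 differed by 0.33 ± 0.15 (limma adjusted p = 0.225). In the light controls neither HHO2 nor HHO3 was called between SALK_070989 and Col-0. HHO2 averaged 8.67 in SALK_070989, against 8.53 in Col-0, and HHO3 averaged 8.79, against 8.53. The Col-0 means at steady state were lower, at 7.86 for HHO2 and 7.60 for HHO3. NRG2 was called higher in SALK_070989 in the light controls (0.587) and at steady state (0.583). At steady state it was also called in SALK_136009 (0.377), but not in SALK_016954. In fits of the groups compared alone its light-control and SALK_136009 calls were lost (limma adjusted p = 0.0792 and 0.0743).

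**Figure D2:**
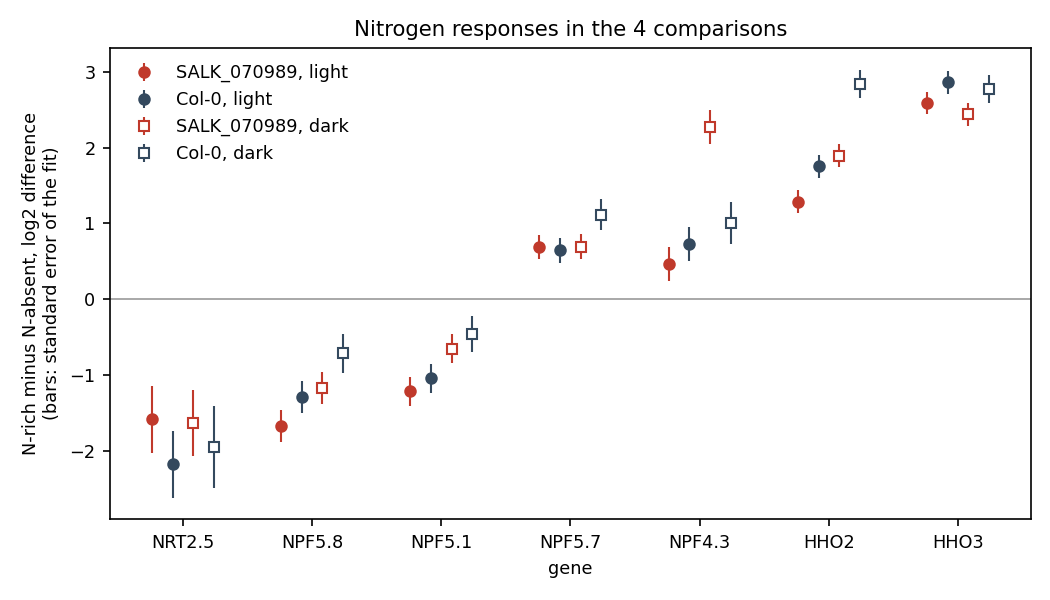
Difference between N-rich and N-absent medium (log2, N-rich minus N-absent, vertical axis) of 7 genes in 4 comparisons, with bars for the standard error of the fit. Filled circles are light-grown and open squares dark-treated plants, red SALK_070989 and dark blue Col-0; NRT2.5, NPF5.8 and NPF5.1 lie below 0, and NPF5.7, NPF4.3, HHO2 and HHO3 above.

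Among the NPF genes, NPF5.8 shared the direction of NRT2.5. It differed by -1.67 ± 0.21 in SALK_070989 and -1.29 ± 0.21 in Col-0 in the light, and by -1.17 ± 0.21 and -0.71 ± 0.26 in the dark, with limma adjusted p-values of 2.18e-07, 1.48e-05, 5.44e-05 and 0.0468. On the SALK_070989 arrays in the light it had 4.70, 4.17 and 4.42 on N-rich medium, against 5.93, 6.29 and 6.08 on N-absent medium. NPF5.1 was lower on N-rich medium by 1.21 ± 0.19 in SALK_070989 and by 1.04 ± 0.19 in Col-0 in the light, and by 0.65 ± 0.19 in SALK_070989 in the dark (limma adjusted p = 1.01e-05, 7.93e-05 and 0.00892). The last of these was 0.0536 without SALK_070989 dark N-absent replicate 2 and 0.0537 without dark N-rich replicate 1. In the opposite direction, NPF5.7 was higher on N-rich medium by 0.69 ± 0.16 and 0.65 ± 0.16 in the light and by 0.69 ± 0.16 and 1.12 ± 0.20 in the dark (SALK_070989, then Col-0), with limma adjusted p-values of 0.00304 or less. In Col-0 in the light this was 0.444 (0.0596) without N-absent replicate 3. In fits of the groups compared alone the NPF5.7 calls were lost in SALK_070989 in the light (limma adjusted p = 0.0693) and in Col-0 in the light and in the dark (0.0993 and 0.101), and that of NPF5.8 was lost in Col-0 in the dark (0.0849).

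In SALK_070989 7 of the 16 NPF genes were called in the light, where 18.8% of all probe sets were called, and their median difference was -0.10, against -0.032 over all probe sets. In Col-0 5 were called in the light, near the 25.8% of all probe sets, with a median of -0.14, against -0.042 over all probe sets. One of the 5, NPF2.3, a nitrate carrier of the root stele, had -0.75 ± 0.28 (limma adjusted p = 0.0481, and 0.0554 with the replicate number as a block). In the dark 9 were called in SALK_070989 (28.6% of all probe sets) and 9 in Col-0 (20.1%), with medians of -0.34 and -0.33, against -0.031 and 0.0042 over all probe sets. The 6 lower genes in SALK_070989 in the dark became 2 without dark N-absent replicate 2. The 2 higher genes in Col-0 in the light became 1 without N-rich replicate 1, N-rich replicate 3 or N-absent replicate 3. In fits of the groups compared alone 0 genes were called higher in SALK_070989 in the light, where the fit to all groups called 3, in Col-0 in the light (2) and in Col-0 in the dark (3); the 3 in Col-0 in the dark became 1 without N-absent replicate 1. The Col-0 count of lower genes in the dark rests on 2 arrays a group: of its 6 lower genes 0 were called without N-absent replicate 1, 2 without N-absent replicate 2, 1 without N-rich replicate 1 and 3 without N-rich replicate 2, and 0 in a fit of these 2 groups alone.

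AT3G21670 showed another pattern: it was high on every light-grown array and low on every dark one. On the 30 light-grown arrays it lay between 9.62 and 10.55, at steady state, on N-rich and N-absent medium and in the light experiment. On the 16 dark arrays it lay between 3.16 and 6.08. The 10 dark arrays with N-rich or N-absent medium, at 3.16 to 3.62, were all at the floor of the probe set, so that genotype and nitrogen differences among them are not given.

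**Figure D3:**
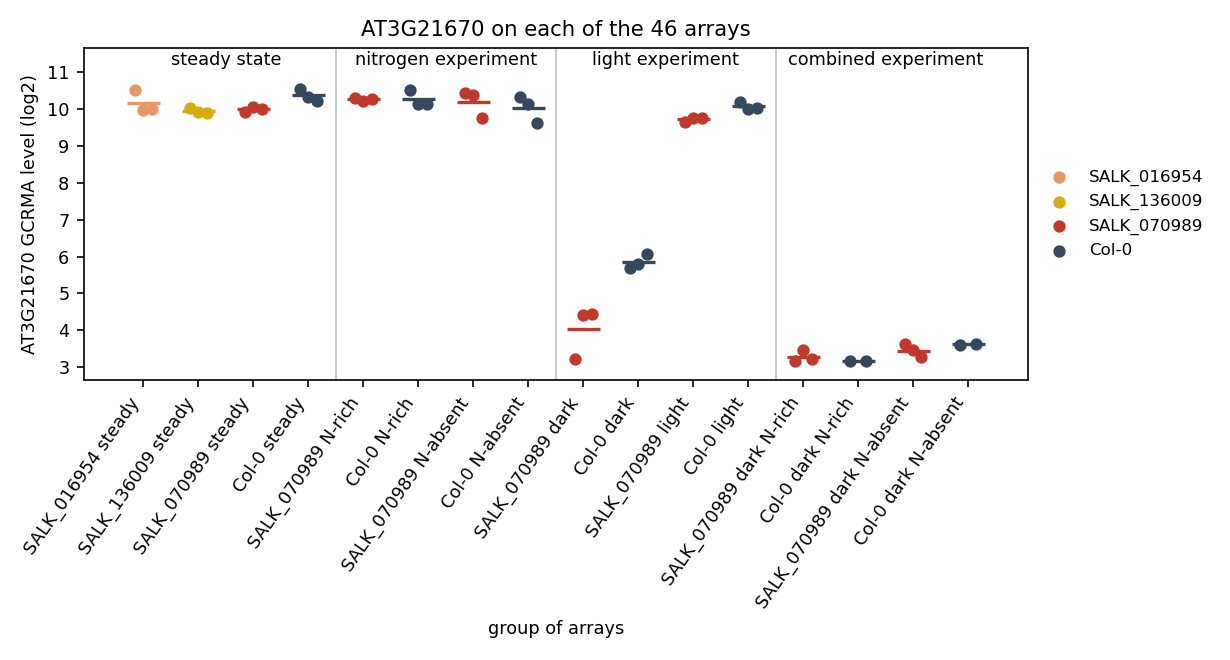
GCRMA level of AT3G21670 (log2, vertical axis) on each array, by group, with short lines at the group means and colours for the genotype. The 30 light-grown arrays lie between 9.62 and 10.55, the dark arrays of the light experiment between 3.22 and 6.08, and those of the combined experiment between 3.16 and 3.62.

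In Col-0, AT3G21670 had levels of 5.69, 5.79 and 6.08 in the dark, against 10.19, 9.9999 and 10.03 in the light. It fell by 4.22 ± 0.21 on the log2 scale, an 18.7-fold decrease, with a limma adjusted p of 1.13e-19, in a comparison where 76.3% of all probe sets were called. An exact permutation test of 3 arrays against 3 gave p = 0.1, the smallest it can give. This comparison shares the Col-0 dark arrays with the one that picked the gene. In SALK_070989 the levels were 3.22, 4.42 and 4.45 in the dark, against 9.66, 9.76 and 9.76 in the light, a difference of -5.70 ± 0.21, where 74.3% of probe sets were called. Dark replicate 1 is at the floor, and without it the difference was -5.29.

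In the dark, each SALK_070989 array (3.22, 4.42 and 4.45) lay below each Col-0 array (5.69, 5.79 and 6.08). The difference was -1.82 ± 0.21, or 3.54-fold lower in SALK_070989, and -1.42 without SALK_070989 dark replicate 1. In this comparison 2.6% of all probe sets were called. The response to darkness was larger in SALK_070989 than in Col-0 by -1.48 ± 0.29, and by -1.07 without that array; 2.22% of probe sets were called in this difference of responses. These are the values that picked AT3G21670, so no test is given. Of the leaf markers in the dark, RCA differed between the genotypes by -0.015 ± 0.082 and PRK by -0.039 ± 0.11 (limma adjusted p = 0.992 and 0.956). The root marker sum did not overlap between them, at 11.25 to 11.44 in SALK_070989 dark, against 10.80 to 11.18 in Col-0 dark. PYK10 differed by 0.43 ± 0.13 and NAI2 by 0.31 ± 0.16 (limma adjusted p = 0.0741 and 0.407), each without overlap, and their part in the AT3G21670 difference was not tested. Between dark and light the leaf marker sum moved with AT3G21670, at 12.2 to 12.3 in SALK_070989 dark and 12.2 to 12.3 in Col-0 dark, against 14.5 in both genotypes in the light, and its part in the darkness result was not tested.

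In light-grown shoots AT3G21670 was not called different between any insertion line and Col-0. At steady state the SALK_016954 arrays had 10.53, 9.98 and 10.02, the SALK_136009 arrays 10.04, 9.93 and 9.89 and the SALK_070989 arrays 9.93, 10.07 and 10.01, against 10.55, 10.34 and 10.23 in Col-0. All arrays of SALK_136009 and SALK_070989 lay below all Col-0 arrays, and those of SALK_016954 overlapped with them. The differences from Col-0 were -0.20 ± 0.21 in SALK_016954 (95% interval -0.62 to 0.22, limma adjusted p = 0.736; 3.28% of probe sets called), -0.42 ± 0.21 in SALK_136009 (-0.84 to 0.0035, limma adjusted p = 0.242; 8.48% called) and -0.37 ± 0.21 in SALK_070989 (-0.79 to 0.051, limma adjusted p = 0.277; 12.5% called). The lines among themselves had limma adjusted p-values of 0.738 or more.

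The light controls of the light experiment repeated the direction of the steady-state value for SALK_070989: 9.66, 9.76 and 9.76, against 10.19, 9.9999 and 10.03 in Col-0, without overlap. The difference was -0.35 ± 0.21 (95% interval -0.77 to 0.075, limma adjusted p = 0.421; 5.61% called). The SALK_070989 light arrays are part of the darkness comparison of that line, which picked the gene. This difference and the mean over 4 conditions below are therefore not independent of that choice. In the nitrogen experiment the direction was not the same. On N-rich medium SALK_070989 had 10.31, 10.22 and 10.28, against 10.51, 10.13 and 10.15 in Col-0, and on N-absent medium 10.44, 10.38 and 9.75, against 10.34, 10.14 and 9.62 in Col-0. These differences were 0.0093 ± 0.21 and 0.15 ± 0.21 (limma adjusted p = 0.998 and 0.733). On N-absent medium arrays of the same replicate number deviate together, and between them the difference was 0.10, 0.24 and 0.13, higher in SALK_070989 in 3 of 3 pairs; with the replicate number as a block its limma adjusted p was 0.734. Over the mean of the 4 light-grown conditions the difference was -0.14 ± 0.10 (-0.35 to 0.072, limma adjusted p = 0.416; 16.1% called), lower in 2 of 4 conditions, with p = 0.166 in an exact two-sided permutation test.

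Nitrogen left no called difference in AT3G21670 in the light. N-rich minus N-absent it was 0.083 ± 0.21 in SALK_070989 (95% interval -0.34 to 0.51, limma adjusted p = 0.857) and 0.23 ± 0.21 in Col-0 (-0.19 to 0.65, limma adjusted p = 0.462). On N-absent medium replicate 3 was the lowest of its group in both genotypes.

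The darkness response of AT3G21670 was set beside those of the 16 other NPF genes that passed the filter. In SALK_070989 8 of the 16 fell and 1 rose, where 36.7% of all probe sets fell and 37.5% rose. In Col-0 9 fell and 2 rose, where 38.2% fell and 38.1% rose. The median difference of the 16 was -0.70 in SALK_070989, against 0.011 over all probe sets, and -0.63 in Col-0, against 0.0014. In Col-0 the difference of AT3G21670 was more negative than that of each of the 16. In SALK_070989 it was so too, but that value had picked the gene.

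**Figure D4:**
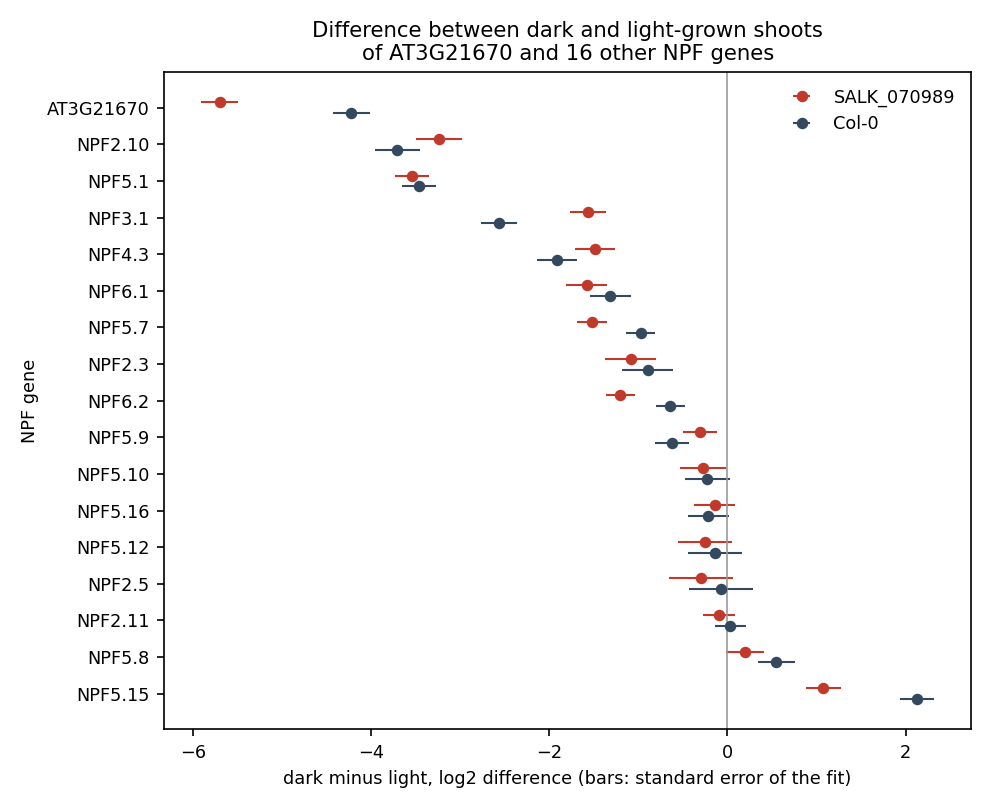
Difference between dark and light (log2, dark minus light, horizontal axis) of AT3G21670 and 16 other NPF genes in SALK_070989 (red) and Col-0 (dark blue), ordered by the Col-0 value, with bars for the standard error of the fit. AT3G21670 lies farthest to the left in both, and NPF5.15 farthest to the right. The SALK_070989 value of AT3G21670 is one that picked it, and its Col-0 value shares the dark arrays with another.

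NPF2.10, the glucosinolate carrier also known as GTR1, was nearest to AT3G21670 in Col-0. It had 3.84, 3.19 and 3.75 in SALK_070989 in the dark, against 6.62, 6.76 and 7.10 in the light, and 3.15, 3.95 and 3.51 in Col-0 in the dark, against 7.40, 7.07 and 7.26 in the light. Its differences were -3.24 ± 0.25 and -3.71 ± 0.25 (limma adjusted p = 6.74e-14 and 1.38e-15). NPF5.1 fell by 3.54 ± 0.19 in SALK_070989 and by 3.46 ± 0.19 in Col-0 (limma adjusted p = 1.78e-18 and 2.61e-18). NPF3.1, a carrier of gibberellin and nitrite, fell by 1.56 ± 0.21 and 2.56 ± 0.21 (limma adjusted p = 1.78e-08 and 1e-13). NPF5.15 rose in the dark by 1.08 ± 0.19 in SALK_070989 and by 2.13 ± 0.19 in Col-0 (limma adjusted p = 6.1e-06 and 2.71e-12).

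NPF6.2 (AT2G26690), a nitrate carrier of the leaf stalk also known as NRT1.4, is in the same subfamily as AT3G21670 and was the only one of the 16 that was called between SALK_070989 and Col-0 in the dark. It had 7.89, 8.08 and 7.81 in SALK_070989 in the dark, against 8.65, 8.49 and 8.65 in Col-0 in the dark, and the arrays do not overlap. The difference was -0.67 ± 0.16 (limma adjusted p = 0.0142). The call was lost when SALK_070989 dark replicate 1 (0.0598) or replicate 3 (0.0793) or Col-0 dark replicate 1 (0.0663) was left out, and in a fit of these 2 groups alone (0.0849). Between dark and light NPF6.2 fell by 1.20 ± 0.16 in SALK_070989 and by 0.64 ± 0.16 in Col-0 (limma adjusted p = 2.66e-08 and 0.000525), and the difference of these responses, -0.56 ± 0.23, had a limma adjusted p of 0.227.

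In the other conditions at most 4 of the 16 NPF genes were called between SALK_070989 and Col-0. At steady state 4 were called, where 12.5% of all probe sets were: NPF5.7 at 0.76 ± 0.16, NPF5.9 at -0.75 ± 0.19, NPF2.3 at -1.10 ± 0.28 and NPF2.10 at -0.96 ± 0.25 (limma adjusted p-values of 0.00829 or less). Without SALK_070989 steady replicate 3 the last 3 of these had limma adjusted p-values of 0.0796, 0.082 and 0.0536. NPF5.7 was also higher in SALK_016954 (0.59 ± 0.16, limma adjusted p = 0.0374) and, likewise at steady state, SALK_136009 (0.64 ± 0.16, limma adjusted p = 0.00949), and in SALK_070989 in the light experiment (0.54 ± 0.16, limma adjusted p = 0.0427). These 3 calls were lost when single arrays were left out, among them Col-0 steady replicate 1 (0.142 for SALK_016954 and 0.0577 for SALK_136009) and Col-0 light replicate 1 (0.215 in the light experiment). NPF5.15 was higher in the light controls of SALK_070989 as well, at 1.17 ± 0.19 (limma adjusted p = 0.000118). At steady state it averaged 3.28 in SALK_070989, against 3.15 in Col-0. NPF3.1 was lower in the light controls, at -0.84 ± 0.21 (limma adjusted p = 0.00887, and 0.0941 without Col-0 light replicate 1 or 0.0739 without SALK_070989 light replicate 1). In the light controls 5.61% of all probe sets were called. On N-rich medium in the light 1 of the 16 was called (2.75% of all), NPF5.12, a nitrate exporter of the vacuole, at -1.19 ± 0.30 (limma adjusted p = 0.0259, and 0.159 without Col-0 N-rich replicate 1). On N-absent medium in the dark NPF4.3 (-1.25 ± 0.25, limma adjusted p = 0.000439) and NPF6.1 (-0.80 ± 0.26, 0.024) were lower in SALK_070989, where 20.1% of all were called; the call of NPF6.1 was lost without either Col-0 array (0.128 and 0.104) and without SALK_070989 replicate 1 (0.15) or 3 (0.0627). On N-rich medium in the dark NPF5.8 was lower (-0.96 ± 0.24, limma adjusted p = 0.00999; 5.19% of all called), and its adjusted p was 0.129 without Col-0 replicate 1 and 0.0556 without SALK_070989 replicate 2.

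The genes whose profiles were most like those of the pair were taken by Pearson's r over the 16 group means, among 7613 named genes. The points share arrays, experiments and normalization, and r is a description of these groups. Features that the chosen genes share with the pair over these groups follow from that choice. For NRT2.5 they were AT1G62790 (r = 0.988), AT5G48430 (0.986), AT1G67800 (0.984), AT3G62960 (0.983) and AT1G14780 (0.981). All 5 had their highest group mean, as did NRT2.5, in Col-0 dark N-absent. AT1G14780 had group means between 2.41 and 9.33, AT5G48430 between 2.24 and 8.01, and AT3G62960, which codes for a glutaredoxin, between 2.24 and 7.20. The most opposed were AT4G00750 (r = -0.983), AT3G23080 (-0.981) and AT3G49140 (-0.964), which were lowest in that group.

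For AT3G21670 the most alike were AT1G07700 (r = 0.994), AT1G51110 (0.993), AT1G22750 (0.993), AT5G59250 (0.99) and AT2G34460 (0.99). Ordered by group mean, AT3G21670 itself was highest in Col-0 at steady state and lowest in Col-0 dark N-rich, and among its neighbours in that order the arrays did not overlap between SALK_136009 steady and SALK_070989 light, between SALK_070989 light and Col-0 dark, or between Col-0 dark and SALK_070989 dark. All 5 genes had their lowest group mean in a group of the combined experiment, as did AT3G21670. They also fell in the dark in the light experiment, by 2.35 to 3.66 in Col-0, as their choice by profile implies. Their differences between SALK_070989 and Col-0 in the dark ranged from -0.36 ± 0.12 for AT1G22750 to -0.10 ± 0.12 for AT2G34460; AT3G21670 was picked by its value in that comparison, so the sizes are not set against each other. The most opposed were AT3G63400 (r = -0.989), AT4G23840 (-0.985) and AT5G51570 (-0.984). Between NRT2.5 and AT3G21670 themselves r was -0.62.

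**Figure D5:**
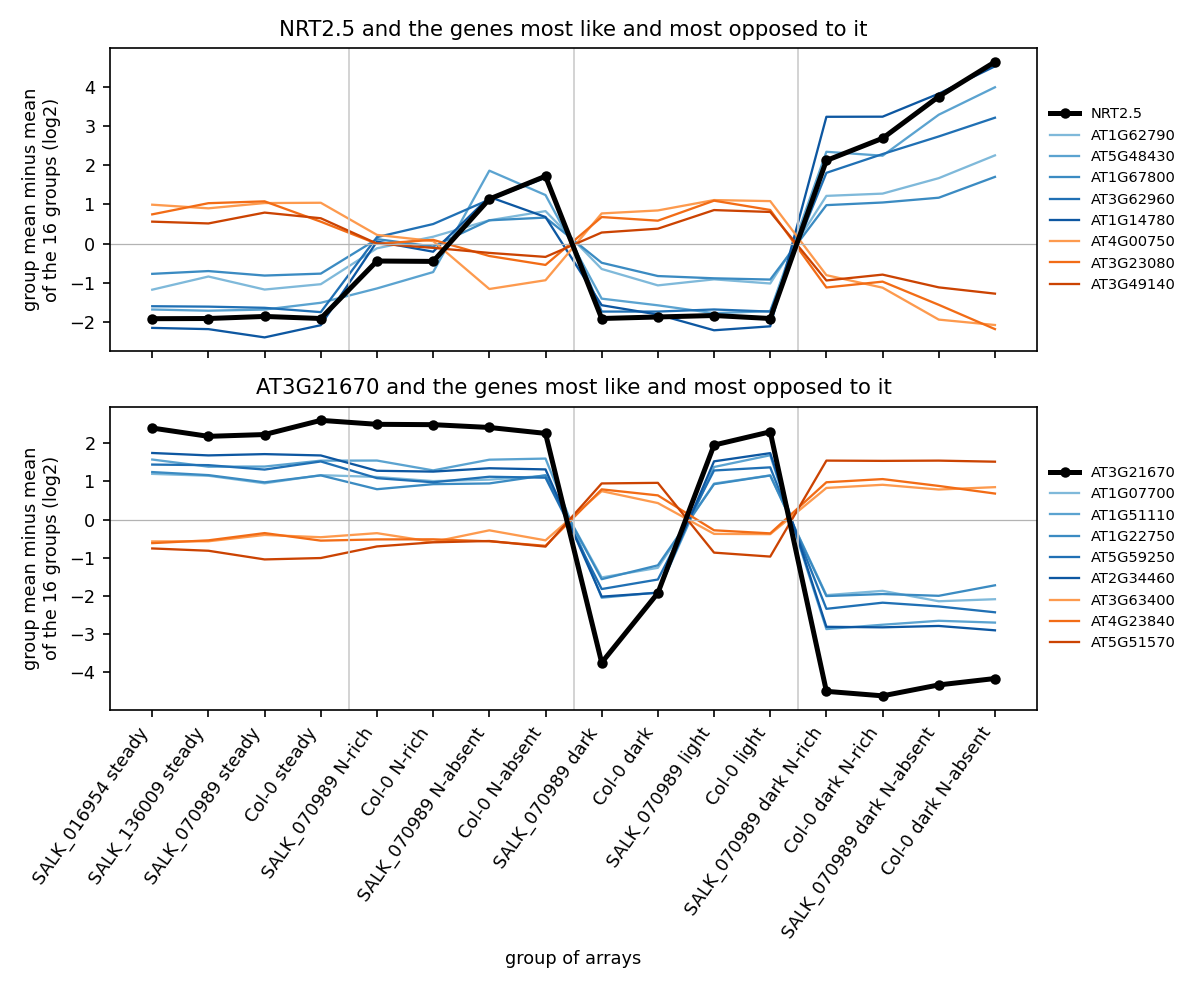
Group means of NRT2.5 (top) and AT3G21670 (bottom), each in black, with the 5 most alike genes in blue and the 3 most opposed in orange, over the 16 groups; each gene is drawn relative to its own mean over the groups (log2, vertical axis), and lines only join the points. NRT2.5 peaks in Col-0 dark N-absent, and AT3G21670 drops in every dark group.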

How the data were processed

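Shoot RNA was labelled with the GeneChip 3′ IVT Express kit and hybridised to Affymetrix arrays, per the labels' protocols. The deposited values were made with GCRMA by the authors, per the submitters' processing notes (no version given), and were read as log2 levels from their range of 2.23 to 14.6. The sources used here do not say which arrays were normalized together. No 2 arrays were identical.

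All 22810 probe sets were read. Those with a highest group mean above 4, control probe sets excluded, were tested (14288, of which 53.7% carry 1 gene name). One limma 3.58.1 model (R 4.3.3) with 16 group means gave all contrasts, with eBayes (30 residual and 4.97 prior degrees of freedom) and Benjamini-Hochberg adjustment over all tested probe sets at 0.05. The procedure was checked on simulated data. Named genes were the pair, the 5 most alike and 3 most opposed by profile, and up to 4 list genes per comparison by smallest adjusted p; further list genes were named after their values were seen. The pair, the lists and the tests were chosen with earlier results of these data known, and the floor, the means over several comparisons and the fit of 8 groups were added after the data were seen. Comparisons of 1 condition share arrays.

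Replicate numbers were checked for pairing by the correlation of deviations from group means. In 2 of 12 comparisons with 3 pairs every pair was above 0.1: SALK_070989 against Col-0 on N-absent medium (0.136 to 0.485) and N-rich against N-absent medium in Col-0 (0.126 to 0.155). Alternatives were no filter, a filter at 6, further quantile normalization, eBayes with trend and robust fitting, only the groups compared, and each array left out. A further one was the replicate number as a block common to all arrays. The number of arrays limits the precision.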

Additional observations from a re-analysis of the deposited data

Results flagged for a closer look

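The responses below differed between genotypes, or between dark and light, by an interaction term of the fit. The difference for AT3G21670 was -1.48: dark minus light it was -5.70 in SALK_070989 and -4.22 in Col-0. The arrays of this difference picked the gene, so its size is a description. The other differences concern list genes and are given with limma adjusted p-values.

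NPF5.15 rose less in darkness in SALK_070989 (1.08) than in Col-0 (2.13), a difference of -1.05 (limma adjusted p = 0.0313, and 0.0504 without a filter); leaving out 1 array gave adjusted p-values up to 0.108, that without SALK_070989 light replicate 1. The N-rich minus N-absent difference of NPF4.3 in the dark was larger in SALK_070989 (2.27) than in Col-0 (1.00), by 1.27 (limma adjusted p = 0.0185). Its dark N-rich means were 6.53 in SALK_070989 and 6.52 in Col-0, and its dark N-absent means were 4.26 and 5.51. The same response of NPF6.1 differed by 1.34 (limma adjusted p = 0.0149), with 0.44 in SALK_070989 and -0.91 in Col-0. That of HHO2 differed by -0.948 (limma adjusted p = 0.00932), with 1.89 in SALK_070989 and 2.84 in Col-0. The last 3 rest on Col-0 groups of 2 arrays, and each lost its call without single arrays: without Col-0 dark N-rich replicate 1 the limma adjusted p was 0.132 for NPF4.3 and 0.0506 for HHO2, and without Col-0 dark N-rich replicate 2 it was 0.111 for NPF6.1.

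The nitrogen response differed between dark and light for 5 gene and genotype pairs. The dark responses come from the combined experiment and the light ones from the nitrogen experiment. Darkness and experiment therefore cannot be told apart in these differences. In Col-0 the N-rich minus N-absent difference of HHO2 was larger in the dark (2.84) than in the light (1.75), by 1.09 (limma adjusted p = 0.00226). NRG2 differed by 0.668 in Col-0 (limma adjusted p = 0.0157), with 0.13 in the dark and -0.54 in the light, and 0.0812 was its adjusted p without Col-0 dark N-absent replicate 1. In SALK_070989 NPF4.3 differed by 1.81 (limma adjusted p = 0.000157), with 2.27 in the dark and 0.47 in the light. NPF3.1 differed by -1.87 (limma adjusted p = 2.36e-05), with -1.42 in the dark and 0.45 in the light. NPF6.2 differed by -0.842 (limma adjusted p = 0.0142), with -0.39 in the dark and 0.45 in the light; without N-absent replicate 3 it was -0.601 (0.0788).

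The genotype difference of HHO3, SALK_070989 minus Col-0, was 0.27 in the light controls and 1.26 at steady state. The difference between them was -0.99 (limma adjusted p = 0.0148, and 0.0858 without Col-0 steady replicate 1).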

How the results depend on the processing

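Of 1885 alternative values for 163 results, 1639 were counted as the same, and 83 results were so under every alternative tried. For tested differences this meant the same direction and side of the threshold. For values that picked a gene it meant a shift below the residual SD of that gene. For counts of NPF genes it meant no large relative change, and for likeness of profile the same sign of r. For NRT2.5 the mean of the 3 nitrogen comparisons that did not pick it lay between -2.09 and -1.35 (limma adjusted p from 1.16e-07 to 0.00483). With the replicate number as a block it was -1.72 (7.07e-06), and the block changed no call of NRT2.5 or AT3G21670; it removed those of NPF2.10 in SALK_136009 at steady state (0.0578) and of NPF2.3 for nitrogen in Col-0 (0.0554). In Col-0 in the dark the paired arrays correlated at -0.182, and 445 probe sets were called in these 4 arrays without a block, 0 with it and 332 with crossed numbers. Fits of the groups compared alone gave NRT2.5 adjusted p-values of 0.267 for SALK_070989 nitrogen (-1.58), 0.235 for Col-0 nitrogen in the dark (-1.95) and 0.0469 for the genotypes on dark N-absent (-0.885); these fits have fewer arrays. The fit of 8 groups gave 0.0936 (-1.58), 0.06 (-1.63) and 0.0872 (-1.95) for nitrogen in SALK_070989, in SALK_070989 in the dark and in Col-0 in the dark. Further quantile normalization turned AT3G21670 on N-rich medium to -0.014 and its genotype difference between light controls and steady state to -0.0331; the cause was not tested. Without a filter 4 NPF genes were higher in Col-0 darkness. The GCRMA floor limits both genes: differences between groups at it cannot be measured.

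With 1 array left out, NRT2.5 ranged as follows. Nitrogen gave -3.06 to -0.843 in Col-0 in the dark and -2.06 to -0.749 in SALK_070989 in the light. The genotype difference was -1.42 to -0.113 on N-absent, -0.465 to 0.387 on N-rich and -1.67 to 0.54 on dark N-rich medium, and -0.783 to -0.229 over 4 conditions. The nitrogen response differed between genotypes by 0.118 to 1.43 in the light and -0.788 to 1.43 in the dark, and between dark and light by -0.882 to 1.33 in Col-0 and -0.883 to 0.425 in SALK_070989. AT3G21670 ranged from -2.03 to -1.42 between genotypes in the dark, from -5.91 to -5.29 for darkness in SALK_070989 and from -1.69 to -1.07 for the difference of darkness responses. Its uncalled differences changed sign: -0.0517 to 0.375 on N-absent (the lowest without Col-0 replicate 3, which leaves its pair incomplete) and -0.0577 to 0.131 on N-rich medium, -0.137 to 0.208 for nitrogen in SALK_070989, -0.366 to 0.061 for nitrogen by genotype, -0.0662 to 0.0956 between light controls and steady state, and -0.267 to 0.00628 between SALK_070989 and SALK_016954. NPF genes higher in Col-0 darkness numbered 1 to 2.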

Other observations

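The combined experiment set some NPF genes apart from AT3G21670, although all were low in the dark plants of the light experiment. NPF2.10 had levels of 6.94, 7.13 and 7.23 in SALK_070989 and 6.44 and 7.04 in Col-0 dark N-rich, and 6.94, 7.50 and 7.77 in SALK_070989 and 7.94 and 7.55 in Col-0 dark N-absent, against 3.15 to 3.95 in the dark groups of the light experiment. NPF4.3 had 6.39, 6.66 and 6.55 in SALK_070989 and 6.29 and 6.74 in Col-0 dark N-rich, and 3.80, 4.35 and 4.64 in SALK_070989 and 5.43 and 5.60 in Col-0 dark N-absent, against 2.81 to 3.58 in those dark groups. AT3G21670 was at 3.16 to 3.62 on the same arrays of the combined experiment. Medium and experiment cannot be told apart in these values, and no test was made between the experiments.

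On N-absent medium in the light, replicate 3 had the lowest level of its group in both genotypes for AT3G21670, NPF6.2, NPF5.7 and NPF2.10. For NPF6.2 it had 8.40 in SALK_070989 and 8.29 in Col-0, against 9.01 to 9.22 on the other 4 arrays. In SALK_070989 the same replicate had the highest NRT2.5 level of the nitrogen experiment, 6.95.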
